A study of Homo sapiens with 4 samples.

Results

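The genes described here are 39 usual targets of NFκB, chosen by name as cytokines, chemokines, survival factors and other products that this family of transcription factors is known to switch on. They were followed in TR9_MeTA14 and TR15_MeTA5 cells, both stable derivatives of LNCaP, a human prostate cancer cell line with epithelial luminal character. Both lines carry the Tet repressor and a tetracycline-regulated construct, NFκB (AD)-MBD, in which the activation domain of the p65 subunit of NFκB is joined to a methyl-CpG binding domain, so that the domain is brought to methylated DNA. Cells were cultured for 4 days with tetracycline (+Tet) or left untreated (-Tet), and RNA from each of the 4 conditions was hybridized to 1 array, with all arrays on 1 slide. Every array came from cells that carry the construct, so tetracycline itself and the induced protein cannot be told apart here. All 39 genes had at least 1 probe, among 19483 genes named on the array, and the brightest probe stood for a gene with several.

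NFκB is a dimer of Rel family proteins, RELA (p65), RELB, REL, NFKB1 and NFKB2, held in the cytoplasm by inhibitors such as NFKBIA until receptors for TNF, IL-1 or microbial products release it through the IKK kinases. Released dimers bind κB sites in promoters and enhancers and raise transcription of chemokines, cytokines, adhesion molecules and proteins that protect cells from death, together with genes that shut the response down again. The p65 activation domain supplies the transcriptional drive of RELA, whereas its Rel homology domain, which recognizes κB sites, is a separate stretch of the protein. The comparison asks whether cells in which that activation domain is carried by a methyl-CpG binding domain also express the usual κB-driven genes.

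By their brightest probe, 12 of the 39 members were not well above background on any array, a judgment made for each probe by the image software. These were CXCL3, CXCL8, CXCL10, CCL2 and CCL5 among the chemokines, IL6, IL1A, CSF2 and LTB among the cytokines, and the surface proteins VCAM1, CD40 and TNFRSF9. The brightest probes of these 12 genes did not exceed 20.6 intensity units on any of the 4 arrays, whereas the dimmest probes well above background read between 13.9 and 19.2 on the different arrays. A dimmer CD40 probe read 26.1 in TR9_MeTA14 -Tet, its 1 array above background, so 11 members were below background by every probe. Another 11 members were well above background by the brightest probe on 1 to 3 arrays, and 16 on all 4. The share measured on all 4 arrays was 41.0% of the members and 65.2% of all genes. By role, it was 0 of 8 chemokines, 2 of 8 cytokines and growth factors, 10 of 12 genes of survival and TNF receptor signalling, 2 of 6 surface receptors and adhesion molecules, and 2 of 5 secreted and other effectors.

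**Figure D1:**
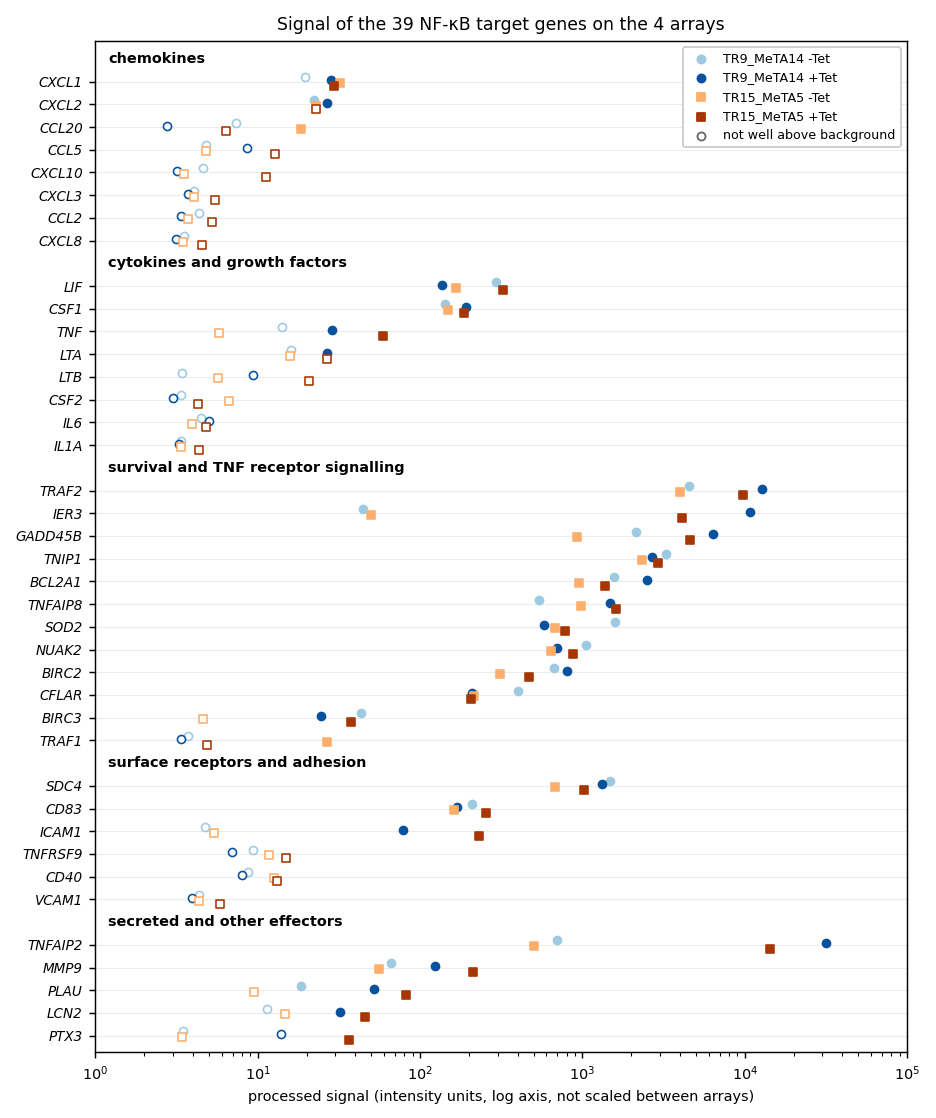
Processed signal of the 39 members (log axis, intensity units, before scaling between arrays), grouped by role, with 1 point for each of the 4 arrays and open points where the probe was not well above background. IER3, TNFAIP2 and ICAM1 have both +Tet points far to the right of both -Tet points, whereas most chemokines have open points at the left edge.

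Fold changes were taken within each cell line from signals scaled to the 75th percentile of each array. Where the dimmer array did not measure the probe well above background, the fold is given as a bound, at least the value against the lowest reliable signal on that array. The probe's own signal was used in its place where that was higher. No fold is given where both arrays were below background or where such a bound pointed the other way. With tetracycline, 7 of 24 members compared (29.2%) were at least 2-fold higher in TR9_MeTA14, beside 16.8% of all genes compared in that line. In TR15_MeTA5, 8 of 26 members (30.8%) were at least 2-fold higher, beside 9.8% of all genes. Of these 8, 4 were bounds, as was 1 of the 7 in TR9_MeTA14. Among the 16 members measured on all 4 arrays, 5 were at least 2-fold higher in TR9_MeTA14 and 4 in TR15_MeTA5. The same counts over all genes were 1740 and 809 of 12698. Members at least 2-fold lower numbered 4 of 24 (16.7%) in TR9_MeTA14, beside 15.1% of all genes, and 1 of 26 (3.85%) in TR15_MeTA5, beside 2.22%, shares near those of all genes. Of 23 members compared in both lines, 5 (21.7%) had increases of 2-fold or more in both, beside 8.21% of all genes, and 0 were lower in both, beside 0.837%. The 5 were IER3, TNFAIP2, ICAM1, PLAU and GADD45B, of which PLAU dropped out with quantile normalization and with the mean over probes, leaving 4. Both PLAU and ICAM1 dropped out with normexp background correction followed by quantile normalization, leaving 3. Scaling on spike-in probes gave 11 members higher and 0 lower in TR15_MeTA5, and higher genes then made up 95.6% of all genes changed in that line in place of 81.5%. That share was 92.1% with normexp background correction followed by quantile normalization, with 4 members higher and 0 lower.

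The shift was carried by few members. Over the 16 members measured on all 4 arrays, the median log2 fold change was 0.01 in TR9_MeTA14 and 0.06 in TR15_MeTA5, beside -0.14 and -0.19 over all genes under the same filter. The lowest and highest of the 16 changes were -1.80 and 7.58 in TR9_MeTA14, and -0.63 and 5.80 in TR15_MeTA5. Equal numbers of the 16, 8 and 8, lay above and below 0 in TR9_MeTA14, whereas 10 lay above 0 in TR15_MeTA5. A single array stood for each condition, so no change within a line has a replicate check. Replicate spots on an array gave an SD of 0.087 for a log2 ratio, which covers spot-to-spot error and not the spread between cultures.

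**Figure D2:**
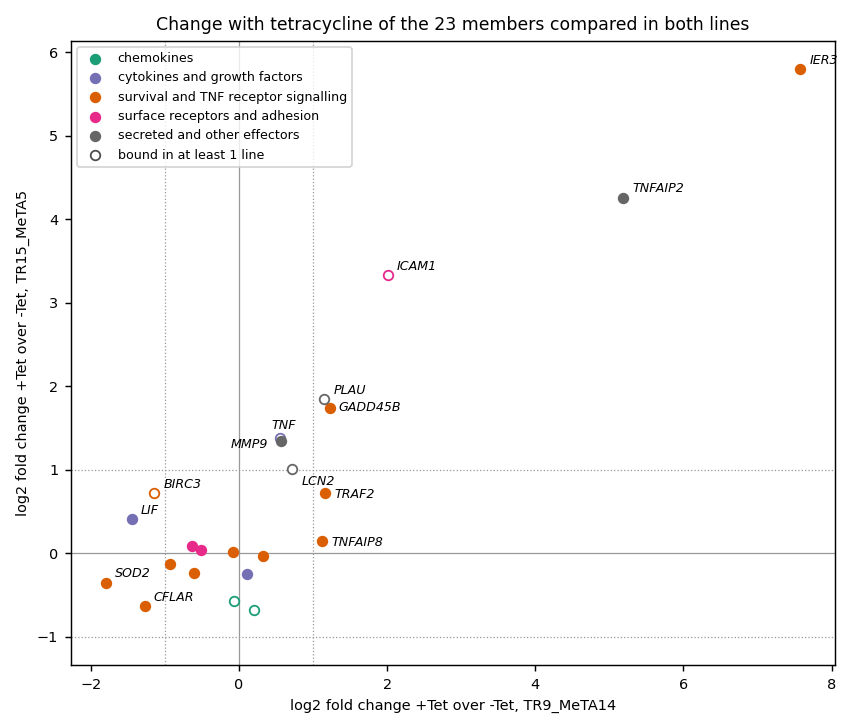
Log2 fold change with tetracycline in TR9_MeTA14 (horizontal) and TR15_MeTA5 (vertical) for the 23 members compared in both lines, coloured by role, open where the value is a bound in at least 1 line, with dotted lines at 2-fold. IER3 and TNFAIP2 stand alone at the upper right, ICAM1, PLAU and GADD45B lie past 2-fold in both lines, and LIF and BIRC3 lie left of 0 in TR9_MeTA14 and above 0 in TR15_MeTA5.

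Of the survival genes, IER3 had the largest measured change of all members in both lines. IER3 is an immediate early gene whose product modulates apoptosis and ERK signalling. In TR9_MeTA14, its signal was 44.7 without and 10751 with tetracycline, and in TR15_MeTA5 it was 50.1 without and 4121 with it. Both untreated arrays were thus low and both treated arrays high, with no overlap. After scaling, the increase was 191-fold in TR9_MeTA14 and 55.6-fold in TR15_MeTA5. A second IER3 probe read 12.7 and 7.12 without tetracycline, not well above background, and 5886 and 2132 with it, which gave at least 303-fold and at least 93.4-fold. With the cell lines as replicates and a term for the line, limma put the change of IER3 at 6.69 on the log2 scale (SE 0.50, adjusted p = 0.0189 over all 22819 probes tested), higher in 2 of 2 lines.

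TNFAIP2, first described as a TNF-induced gene of endothelial cells and later tied to membrane protrusions, was among the secreted and other effectors. Its signal was 693 and 505 on the untreated arrays of TR9_MeTA14 and TR15_MeTA5, and 31803 and 14310 on the treated arrays. Unlike IER3, it was well expressed before induction, and the treated arrays lay far above both untreated arrays. The increase was 36.5-fold and 19.2-fold after scaling, and limma put it at 4.72 on the log2 scale (SE 0.34, adjusted p = 0.0174), higher in 2 of 2 lines. PLAU, the urokinase-type plasminogen activator, was dim throughout, at 18.6 and 9.503 on the untreated arrays of TR9_MeTA14 and TR15_MeTA5 and at 51.9 and 82.2 on the treated arrays. It was 2.22-fold higher in TR9_MeTA14, and higher by at least 3.60-fold in TR15_MeTA5, where the untreated array was below background, and the adjusted p by limma was 0.193. The log2 fold change in TR9_MeTA14, 1.15, was 0.84 with quantile normalization, 0.54 with the mean over both PLAU probes and 0.25 with normexp. The second PLAU probe was below background on every array, with signals up to 4.40, so that mean includes an unmeasured probe.

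The remaining secreted effectors lay low. MMP9, a gelatinase that degrades basement membrane, read 66.1 and 123 in TR9_MeTA14 and 56.0 and 211 in TR15_MeTA5, or 1.48-fold and 2.55-fold higher after scaling. LCN2, which binds bacterial siderophores, read 11.5 and 14.7 on the untreated arrays, below background, and 32.0 and 46.1 on the treated arrays, at least 1.65-fold and at least 2.02-fold higher. Both treated arrays were above both untreated arrays for each of these genes, while the adjusted p by limma was 0.254 for MMP9 and 0.242 for LCN2. PTX3, a soluble pattern recognition molecule, was measured well above background on 1 array, TR15_MeTA5 +Tet, with a signal of 36.7, so that its increase there was at least 1.61-fold.

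Among surface receptors and adhesion molecules, ICAM1 was the member whose brightest probe had a 2-fold change. ICAM1 is the ligand of leukocyte integrins and a classical κB-driven gene. Its signal was 4.72 and 5.37 on the untreated arrays of TR9_MeTA14 and TR15_MeTA5, not well above background, and 78.2 and 229.6 on the treated arrays. TR9_MeTA14 thus had an increase of at least 4.02-fold, and TR15_MeTA5 one of at least 10.1-fold. By limma, with the unmeasured untreated signals entered as they stood, so that the size is no measured fold, the change was 4.29 on the log2 scale (SE 0.45, adjusted p = 0.0338), higher in 2 of 2 lines. This call was lost with normexp background correction and without a term for the cell line, and the adjusted p ranged from 0.00826 to 0.149 over the alternatives in which ICAM1 was tested. With normexp the log2 fold change of ICAM1 was at least 0.57 in TR9_MeTA14, so its 2-fold call there was lost, and at least 1.84 in TR15_MeTA5. The transmembrane proteoglycan SDC4 and CD83, a marker of mature dendritic cells, were measured on all 4 arrays. SDC4 read 1488 and 1313 in TR9_MeTA14 and 675 and 1025 in TR15_MeTA5, log2 fold changes of -0.51 and 0.04. CD83 read 208 and 169 in TR9_MeTA14 and 162 and 254 in TR15_MeTA5, log2 fold changes of -0.63 and 0.09. CD40, a costimulatory TNF receptor, was below background by its brighter probe, while the dimmer read 26.1 in TR9_MeTA14 -Tet and 3.61 in TR9_MeTA14 +Tet, at least 2.35-fold lower. VCAM1, which like ICAM1 binds leukocyte integrins, was below background on every array, with signals up to 5.86.

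GADD45B, a stress-induced protein that restrains JNK signalling, was strongly expressed before induction. Its signal was 2153 and 6332 in TR9_MeTA14 and 922 and 4573 in TR15_MeTA5, without and with tetracycline. Both treated arrays exceeded both untreated arrays, and the increase was 2.34-fold and 3.35-fold. Its adjusted p by limma was 0.100. TRAF2, an adaptor of TNF receptors, read 4519 and 12703 in TR9_MeTA14 and 4006 and 9778 in TR15_MeTA5, or 2.24-fold and 1.65-fold higher, and a second probe gave 2.63-fold and 1.35-fold. TNFAIP8, an inhibitor of TNF-induced death, read 540 and 1481 in TR9_MeTA14, a 2.18-fold difference, but 980 and 1614 in TR15_MeTA5, only 1.11-fold after scaling. For TNFAIP8 the untreated signals differed more between the lines than the treated ones.

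Other survival genes were lower with tetracycline in TR9_MeTA14. SOD2, the mitochondrial superoxide dismutase, read 1599 and 577 in TR9_MeTA14 and 675 and 782 in TR15_MeTA5, or 3.48-fold and 1.28-fold lower after scaling. Its log2 fold change in TR15_MeTA5, -0.35, turned to 0.09 with spike-in scaling. CFLAR, which encodes the caspase-8 inhibitor c-FLIP, read 401 and 209 in TR9_MeTA14 and 216 and 206 in TR15_MeTA5, or 2.42-fold and 1.55-fold lower. The dimmer CFLAR probe went the other way, 1.27-fold and 1.43-fold higher, so the direction of CFLAR depends on the probe. BIRC3, the inhibitor of apoptosis c-IAP2, read 43.0 and 24.5 in TR9_MeTA14, 2.21-fold lower, and 4.62 and 37.5 in TR15_MeTA5, at least 1.64-fold higher from a level below background. TRAF1, a TRAF2 partner, was measured on 1 array, TR15_MeTA5 -Tet, with a signal of 26.8, and was at least 2.06-fold lower in TR15_MeTA5 +Tet. By limma, the adjusted p was 0.271 for SOD2, 0.236 for CFLAR and 0.720 for BIRC3.

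The other survival genes stayed within 2-fold in both lines. BIRC2, the inhibitor of apoptosis c-IAP1, read 672 and 799 in TR9_MeTA14 and 312 and 468 in TR15_MeTA5, log2 fold changes of -0.08 and 0.02. BCL2A1, a BCL2 relative that blocks apoptosis, had log2 fold changes of 0.33 and -0.03 at signals between 952 and 2483, but its other probe was below background on all 4 arrays, with signals up to 4.44. The level of BCL2A1 therefore rests on 1 of its 2 probes. TNIP1, which helps TNFAIP3 restrain NFκB, read between 2320 and 3268, with log2 fold changes of -0.61 and -0.23, and the kinase NUAK2 read between 642 and 1056, with log2 fold changes of -0.93 and -0.12.

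Among cytokines and growth factors, LIF and CSF1 were measured on all 4 arrays. LIF, a cytokine of the IL-6 family, read 294 and 136 in TR9_MeTA14, 2.72-fold lower after scaling, and 166 and 326 in TR15_MeTA5, 1.33-fold higher. The lines thus moved in opposite directions, which 4 arrays do not allow to be tested, and the second LIF probe was below background on every array. CSF1, the macrophage growth factor, read 143 and 193 in TR9_MeTA14 and 148 and 186 in TR15_MeTA5, log2 fold changes of 0.10 and -0.24. A dimmer CSF1 probe, also measured on all 4 arrays, gave log2 fold changes of 0.71 and -0.22, and another was below background on every array. TNF itself was below background on both untreated arrays, at 14.1 and 5.80, and read 28.7 in TR9_MeTA14 +Tet and 59.4 in TR15_MeTA5 +Tet. Its increase was at least 1.47-fold and at least 2.61-fold, with an adjusted p of 0.259 by limma. LTA, a TNF relative, was well above background only in TR9_MeTA14 +Tet, at 26.6, though TR15_MeTA5 +Tet read 26.9 without passing the background criterion. LTB, the membrane partner of LTA, was below background everywhere, and its highest signal, 20.6, was in TR15_MeTA5 +Tet. IL6, IL1A and CSF2 read at most 6.63 on any array.

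Chemokines were the group with the lowest signals. CXCL1 and CXCL2, which attract neutrophils, were each well above background on 3 arrays but close to the detection limit, with signals between 19.6 and 32.0 for CXCL1 and between 22.3 and 26.8 for CXCL2. The log2 fold change of CXCL1 was at least 0.20 in TR9_MeTA14, and the gene was 1.59-fold lower in TR15_MeTA5, and CXCL2 was 1.05-fold lower and at least 1.48-fold lower. The second CXCL1 probe went against the first in TR9_MeTA14, at 27.99 without and 4.85 with tetracycline, at least 2.53-fold lower, and was below background in TR15_MeTA5. The second CXCL2 probe was below background on every array. CXCL1, CXCL2 and CXCL3 are closely related genes, and whether their probes share signal was not tested. The CXCL3 probe read at most 5.43 on any array. CCL20, which attracts cells through CCR6, was measured on 1 array, TR15_MeTA5 -Tet, at 18.5. CXCL8, the interleukin 8 gene, read between 3.13 and 4.57, and CCL2, which attracts monocytes, between 3.39 and 5.27. By their brightest probes, 0 of the 3 chemokines with a fold in either line had a 2-fold change.

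Over both lines, limma tested 23 members, and 3 of them (13.0%), TNFAIP2, IER3 and ICAM1, were higher at an adjusted p below 0.05, beside 2.52% of all probes tested. Counted by brightest probe, as the members are, 456 of 14467 genes were higher. No member was lower by this test, beside 0.00876% of probes, while 9 members with higher and 1 with lower signal, 43.5% in all, had an unadjusted p below 0.05, beside 19.3% of probes and 3075 of the 14467 genes. The other 16 members were not tested because fewer than 2 arrays measured them. A member with low untreated signal entered only through its treated arrays, as ICAM1 did, so these counts do not describe all 39. With probes measured on all 4 arrays, limma called 2 of 16 members (12.5%), IER3 and TNFAIP2, beside 0.839% of probes. The fit has 1 residual degree of freedom, and the number of arrays limits its precision.

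**Figure D3:**
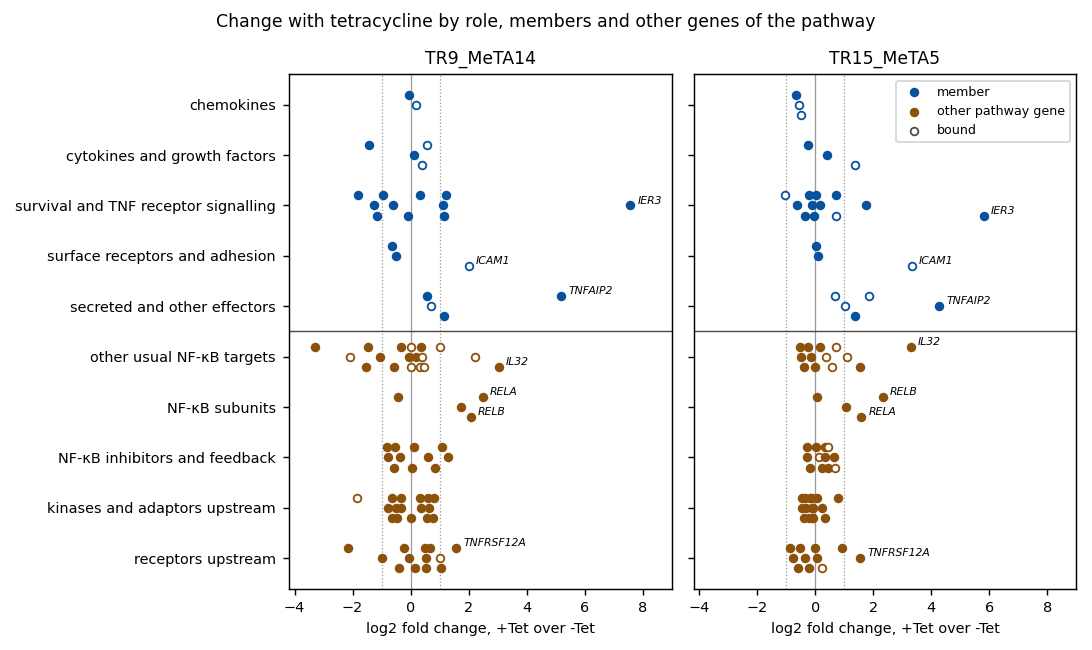
Log2 fold change with tetracycline in TR9_MeTA14 (left) and TR15_MeTA5 (right) for the members by role (blue) and for other genes of the pathway (brown), 1 point per gene with a fold, open where the value is a bound, with dotted lines at 2-fold. Kinases, adaptors and inhibitors cluster around 0, and the subunits RELA and RELB and the target IL32 lie to the right of 2-fold in both lines.

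Other genes of the pathway were read from lists of subunits, inhibitors, upstream kinases and receptors, and further targets, 79 of them with a probe. Of 54 compared in both lines, 5 (9.26%) passed 2-fold upward in both and 0 downward, beside 8.21% and 0.837% of all genes. By limma, 2 of 55 tested (3.64%), RELB and IL32, were called higher, beside 2.52% of probes and 456 of 14467 genes, a share near that of the pathway genes. In TR9_MeTA14, 10 of 62 compared were at least 2-fold higher and 7 lower, beside 16.8% and 15.1% of all genes. Among the further targets in that line the counts were 2 and 5 of 18. The further targets that were lower there included TNFSF15, a TNF relative (9.88-fold), the cyclin CCND1 (2.90-fold), the death receptor FAS (2.78-fold), the peptide transporter TAP1 (2.09-fold) and the chemokine CX3CL1 (at least 4.25-fold). In TR15_MeTA5, 7 of 56 pathway genes compared were at least 2-fold higher and 0 lower, beside 9.8% and 2.22% of all genes. Of 13 further targets compared in that line, 3 were at least 2-fold higher, IL32, IRF1 (2.93-fold) and PLAUR (at least 2.12-fold). RELB, the subunit of the noncanonical pathway, read 354 and 323 without tetracycline in TR9_MeTA14 and TR15_MeTA5 and 1878 and 2392 with it, increases of 4.22-fold and 5.01-fold (limma log2 change 2.20, SE 0.25, adjusted p = 0.0396). IL32, a proinflammatory cytokine, read 38.0 and 65.4 without and 393 and 950 with it, increases of 8.21-fold and 9.83-fold (limma log2 change 3.17, SE 0.27, adjusted p = 0.0241). Its second probe gave 3.51-fold and 2.39-fold. REL was 3.33-fold and 2.10-fold higher, and TNFRSF12A, the receptor for TWEAK, was 2.97-fold and 2.90-fold higher, with adjusted p of 0.145 and 0.0725.

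RELA, whose activation domain the construct carries, was read differently by its 2 probes. The brighter read 660 and 468 on the untreated arrays of TR9_MeTA14 and TR15_MeTA5 and 4658 and 2085 on the treated arrays, differences of 5.61-fold and 3.01-fold (limma adjusted p = 0.0734). The other read 723 and 1110 in TR9_MeTA14 and 561 and 743 in TR15_MeTA5, log2 fold changes of 0.29 and -0.16. Whether the brighter probe reads the RNA of the construct was not tested. NFKB1 changed little, with log2 fold changes of -0.44 and 0.07, as did NFKBIA, the inhibitor that NFκB itself induces, with -0.56 and 0.35. None of 11 inhibitor and feedback genes compared in both lines was 2-fold higher in both, although TNIP2 and TRAF3 were 2.45-fold and 2.12-fold higher in TR9_MeTA14. TNFAIP3, the A20 feedback enzyme, was measured on 1 array, TR15_MeTA5 +Tet, at 24.8. Of 16 kinases and adaptors compared in both lines, 0 were 2-fold higher or lower in both.

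The arrays were checked against markers of the labelled cells. All 7 luminal prostate markers, among them KLK3, KLK2 and KRT18, were measured on all 4 arrays. Their summed scaled signal was 459 and 170.2 in TR9_MeTA14 and 622 and 392 in TR15_MeTA5, without and with tetracycline, and 4 of the 7 were at least 2-fold lower in TR9_MeTA14. KLK3, the brightest of the 7 on every array, weighs most in these sums and was 3.85-fold and 1.62-fold lower. In TR9_MeTA14, FOLH1 was 1.60-fold and KRT18 1.81-fold lower, while KRT8 was 1.18-fold higher. All 7 were lower in TR15_MeTA5, 0 of them by 2-fold. Of 10 markers of other cells, KRT5, TP63 and DCN were below background on every array, while CD14 and CD68 passed 2-fold upward in both lines. COL1A1 and VWF were measured on all 4 arrays. COL1A1 read 475 and 505 in TR9_MeTA14 and 36.4 and 97.6 in TR15_MeTA5, without and with tetracycline. VWF read 378 and 359 in TR9_MeTA14 and 260 and 263 in TR15_MeTA5. CD3E was measured on 3 arrays and was at least 2.55-fold lower in TR15_MeTA5. PECAM1 was well above background on the treated arrays only. The summed scaled signal of the 10 was 2.02 and 4.199 in TR9_MeTA14 and 2.32 and 3.94 in TR15_MeTA5. PTPRC, the common leukocyte antigen, read 97.2 and 145 in TR9_MeTA14 and 109 and 105 in TR15_MeTA5, and was thus not raised along with CD14 in both lines. The part of these shifts in the changes of IER3, TNFAIP2 and ICAM1 was not tested, and in RNA from whole cultures fewer cells of a kind and less RNA per cell cannot be told apart.

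Promoter sequence was set beside the response, since κB sites are what NFκB binds and CpG dinucleotides are what a methyl-CpG binding domain needs. RefSeq windows on GRCh38.p14, from 250 bases before to 50 after a start site, were found for 32 of the 39 members, and CCL2, CCL5, LIF, CSF1, CD40, IER3 and MMP9 had none. The 10-base κB consensus was searched on both strands with overlapping matches counted. It was in a window of 17 of 32 members (53.1%), beside 8.52% of 15176 genes on the array with a window, and a looser form was in 59.4% and 19.3%. Of all windows of this length, 5.91% held the κB consensus. The members were picked as known κB targets, so their high share describes that choice.

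The following sites are shown because they belong to 5 of the 6 members that stayed below background on all 4 arrays although the κB consensus lies close to the start. Each is 30 bases, 5′ to 3′ on the strand of the gene, with the match in capitals, which in these genes begins between 62 and 122 bases before the start. CXCL1 and CXCL2 are added for their kinship with CXCL3.
CXCL3 (chr4:74038749-74038778, minus strand): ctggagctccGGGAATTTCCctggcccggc
CXCL2 (chr4:74099254-74099283, minus strand): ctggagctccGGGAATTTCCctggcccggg
CXCL1 (chr4:73869304-73869333, plus strand): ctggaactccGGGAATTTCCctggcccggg
CXCL10 (chr4:76023600-76023629, minus strand): tctgcaacatGGGACTTCCCcaggaacagc
IL6 (chr7:22727117-22727146, plus strand): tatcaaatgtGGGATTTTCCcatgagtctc
VCAM1 (chr1:100719670-100719699, plus strand): tccccttgaaGGGATTTCCCtccgcctctg
TNFRSF9 (chr1:7940894-7940923, minus strand): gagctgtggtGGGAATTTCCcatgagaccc
The 10 matched bases are identical in CXCL1, CXCL2, CXCL3 and TNFRSF9. In CXCL1, CXCL2 and CXCL3 the flanks are almost identical too.

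Matches were also found in members with other patterns. The following are shown because their genes were expressed on all 4 arrays without a 2-fold increase in either line (TNIP1, SDC4 and CFLAR), were lower in TR9_MeTA14 and higher in TR15_MeTA5 (BIRC3), or were dim and higher with tetracycline (LCN2 and PTX3).
TNIP1 (chr5:151081057-151081086, minus strand): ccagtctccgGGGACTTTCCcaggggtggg
SDC4 (chr20:45348502-45348531, minus strand): cgcttccactGGGGAATTCCgggcggggtg
CFLAR (chr2:201118609-201118638, plus strand): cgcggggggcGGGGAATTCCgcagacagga
BIRC3 (chr11:102317275-102317304, plus strand): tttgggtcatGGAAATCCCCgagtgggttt
LCN2 (chr9:128149268-128149297, plus strand): cagcactccgGGAATGTCCCtcactctccc
PTX3 (chr3:157436743-157436772, plus strand): accaaattcaGGGGAACTCCcgttaccgca
The BIRC3 and LCN2 matches run on the opposite strand to the gene. CD83, likewise expressed on all 4 arrays without a 2-fold increase in either line, held 3 overlapping matches that are not shown. CFLAR and SDC4 hold the same 10 matched bases, and their log2 fold changes in TR9_MeTA14 were -1.27 and -0.51.

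Of the 5 members at least 2-fold higher in both lines, TNFAIP2, ICAM1, PLAU and GADD45B had a window, and 0 of these 4 held the κB consensus. Among the 9 members with a window that were below background on all arrays, 6 (66.7%) held it. Over all genes, the consensus was in 14.0% of the 840 genes with a window and an increase of 2-fold or more in both lines, in 8.86% of those measured on all 4 arrays and in 7.27% of those below background on all. The looser form was in 1 of the 4 higher members, GADD45B, and in 7 of the 9 below background. Over all genes, it was in 29.2% of the 840, 20.1% of those measured on all 4 arrays and 16.4% of those below background. The groups of members are small and the windows short, and a match or its absence in these letters does not locate a working site. By role, the consensus was in 5 of 6 chemokines, 3 of 6 cytokines, 4 of 5 surface proteins, 2 of 4 secreted effectors and 3 of 11 survival genes.

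CpG counts differed between the same groups. The 4 upregulated members had 24 (ICAM1), 27 (GADD45B), 28 (PLAU) and 35 (TNFAIP2) CpG dinucleotides in the 300-base window, a median of 27.5, beside a median of 25 over genes on the array. The 9 members below background on all arrays had a median of 5, with CXCL3, at 24, far above the rest, which had between 2 and 8. The 12 members measured on all 4 arrays had a median of 34.5, ranging from 2 in BCL2A1 to 53 in CD83. Genes in general showed the same order, with a median of 7 where they were below background on all arrays, 28 where they were measured on all, and 27 where they passed 2-fold upward in both lines. These counts are descriptions of groups that were not chosen to match in expression, and methylation of the windows was not analysed here.

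**Figure D4:**
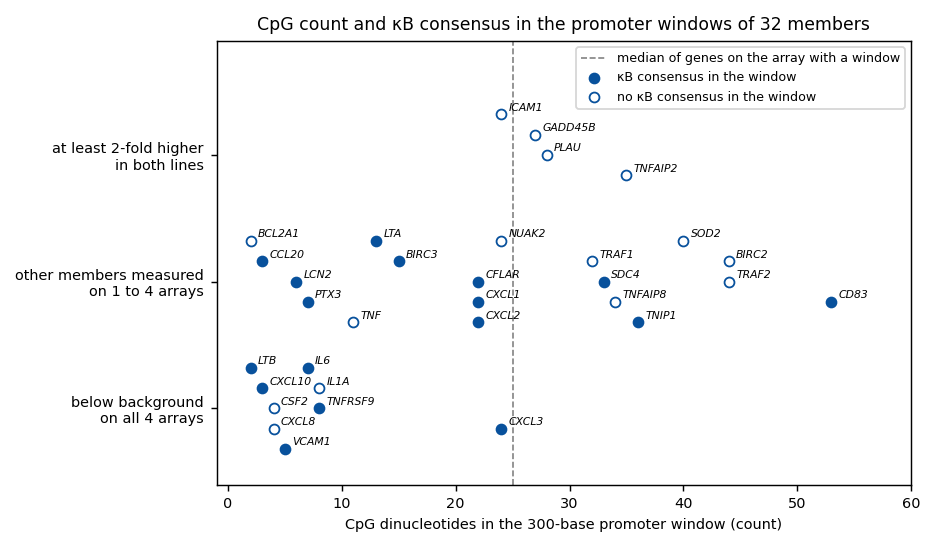
CpG dinucleotides in the 300-base promoter window of 32 members (horizontal, count) by response, with filled points where the window holds the κB consensus and a dashed line at the median of genes on the array. TNFAIP2, ICAM1, PLAU and GADD45B lie between 24 and 35 and are open, whereas 8 of the 9 members below background lie between 2 and 8.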

How the data were processed

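RNA from both LNCaP-derived lines, untreated or kept in tetracycline for 4 days, was measured on 4 one-color Agilent arrays, 1 per condition. The authors deposited the Feature Extraction output, whose processed signal is a background-subtracted spot intensity without scaling between arrays. The file headers name version 10.7.3.1, and the submitters' processing notes name 9.5.1. A deposited table of the series held the same intensity values.

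Spots marked as outliers were left out, log2 signals were averaged per probe, and the 75th percentile over 34127 probes of each array was subtracted. It lay at 618 and 777 in TR9_MeTA14 and at 367 and 542 in TR15_MeTA5, so scaling lowered the ratios by 1.26 and 1.48. Between 20563 and 24217 probes per array were well above background, and no spot was saturated. RefSeq accessions paired 74.5% of probes with 1 gene, and NFKB2 and IL15 were paired with none.

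Folds were called at 2-fold, the cut-off of the study's methods. limma 3.58.1 in R 4.3.3 (line as a term, intensity trend, Benjamini-Hochberg adjustment) was run on probes that 2 or more arrays measured well above background. Tested on simulated data of this design with 22819 probes, it found 0% of 4-fold, 70% of 16-fold and 96% of 64-fold differences and made 7 false calls. Few probes were changed in that simulation, whereas 576 were called higher in the data, so these rates may not hold there. Values on all arrays were to be given for members changed at least 2-fold in either line, called by limma or measured on all 4 arrays, and for pathway genes changed at least 2-fold in both lines or called by limma. The other genes named, TNIP2, TRAF3, TNFAIP3, the further targets changed in a single line, NFKB1 and NFKBIA included, were picked after their values were seen. The members and lists were chosen with earlier results of these data known. Some genes of the marker lists are not reported here and enter no marker count or sum. Alternatives were other normalizations, background correction, filters, cut-offs, averaging over probes, no block and no trend. Slide could not be a block, since all arrays lay on 1 slide. The remaining steps used pandas 2.3.3 and numpy 2.4.6 in Python 3.11.15.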

Additional observations from a re-analysis of the deposited data

Results flagged for a closer look

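LIF and BIRC3 stood out because the lines moved in opposite directions, at least 2-fold in 1 of them. The log2 fold change of LIF was -1.44 in TR9_MeTA14 and 0.41 in TR15_MeTA5. That of BIRC3 was -1.14 in TR9_MeTA14 and at least 0.72 in TR15_MeTA5. The decrease of LIF in TR9_MeTA14 was under 2-fold with the mean over its probes (-0.58), and that of BIRC3 with normexp (-0.42). The difference between the lines was not tested in either gene, because 1 array per condition allows no such test.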

How the results depend on the processing

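The term for the line pairs the arrays of a line, and without this block limma called 2 members in place of 3. With 1 array per condition, no replicate could be left out. The deposited series table holds the same signals and says nothing about stability. Causes of shifts were not tested, except where the setting itself shows them. IER3, TNFAIP2 and GADD45B kept increases of 2-fold or more in both lines under all the alternatives, though GADD45B did not reach 3-fold in TR9_MeTA14. limma called IER3 and TNFAIP2 under every alternative, ICAM1 under all except normexp, the filter on all 4 arrays and no term for the line, and GADD45B only without a filter. With the 16 members measured on all 4 arrays, the median in TR9_MeTA14 lay close to 0 and its sign was not stable: -0.10 with normexp and -0.080 with the mean over probes, against 0.15 with spike-in scaling, which raised the TR15_MeTA5 median to 0.50. Spike-in scaling also moved the median of all genes in TR15_MeTA5 from -0.19 to 0.26, and then 0 members were lower in that line. With normexp, 2 members were lower in TR9_MeTA14, 4 higher and 0 lower in TR15_MeTA5, and 3 higher in both. The filter on all 4 arrays, which removes bounds, gave 4 higher and 0 lower in TR15_MeTA5 and 3 higher in both. Plain ratios without a filter gave 3 lower in TR15_MeTA5, and 8 higher and 1 lower in both. A cut-off of 3-fold left 3 higher and 1 lower in TR9_MeTA14, 5 higher and 0 lower in TR15_MeTA5, and 3 higher in both. A cut-off of 1.5-fold gave 7 lower in TR9_MeTA14, 3 in TR15_MeTA5 and 1 in both. Counts over all genes moved with these settings too. Genes lower in TR9_MeTA14 numbered 2274 at the original settings, 1456 with normexp, 1003 at 3-fold and 4081 at 1.5-fold. In TR15_MeTA5 the lower genes numbered 318, 79, 82 and 1628 at the same settings, and 922 without a filter. The higher genes there numbered 1405 at the original settings, 916 with normexp, 809 with the filter on all 4 arrays and 891 at 3-fold. Of 248 single-gene folds under the alternatives, 82 moved by more than the spot-to-spot error and 1 changed sign, SOD2 in TR15_MeTA5, which was not a 2-fold change (-0.35, and 0.09 with spike-in scaling). The 248 include folds from the deposited table and under the filter on all 4 arrays. Those equal the original folds by construction, so the share that moved is understated. PLAU was not 2-fold higher in TR9_MeTA14 with quantile normalization, normexp or the mean over probes, nor was ICAM1 with normexp. These settings left 4, 3 and 4 members higher in both lines. Signal over background limits the 23 members that were not measured on all 4 arrays.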
